A study of Mus musculus with 26 samples.

Results

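The RNA of 9 replication-independent histone variant genes was examined in single blastomeres of mouse 8-cell embryos. The genes were H3f3a and H3f3b, which encode H3.3, H2afz and H2afv, which encode the 2 forms of H2A.Z, H2afx (H2A.X), H2afy (macroH2A1), Cenpa (the centromeric H3), H1foo (the oocyte linker histone) and H1f0 (the linker histone H1.0). They were chosen by symbol among 55487 genes with a TPM value, a share of the transcripts of a cell that is corrected for transcript length. In scRR-seq the RNA and the replication state of the DNA are read from the same cell. The labels gave 26 samples, the RNA and DNA of 13 cells, and 9 cells had columns in the tables used. Embryo 1 gave 3 of them (cells 1, 6 and 7) and embryo 2 gave 6 (cells 2, 3, 5, 6, 7 and 8). The labels named 8-cell embryo as the only tissue, with no treatment, no genotype and no strain.

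Most histone genes are transcribed for S phase, and their mRNAs end in a stem-loop in place of a poly(A) tail. Replication-independent variants can be made outside S phase, mostly from spliced, polyadenylated mRNAs, and are put into chromatin by their own chaperones. After fertilization maternal H3.3 is put onto the sperm genome as protamines leave it, macroH2A is largely lost from the maternal chromatin, and the oocyte linker histone gives way to somatic H1.

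H2afx stands apart from the other members by its mRNA, and its site is shown for that reason beside those of the replication-dependent H2A genes with the highest mean TPM among genes that carry the motif. The histone stem-loop was searched as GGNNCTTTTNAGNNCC on the transcript strand of 141767 GENCODE transcripts, of which 124 (0.0875%) held it. Among coding transcripts of genes with a Hist symbol 46 of 72 (63.9%) held it, and of 45 member transcripts only H2afx-201 did. These 72 were nearly all of replication-dependent genes, but Hist1h1t, Hist1h2ba and Hist1h2aa were not left out. Its motif began 47 bases after the stop codon, in the 3′ untranslated part, and 822 bases of the transcript followed it. In Hist1h2ap-201 only 3 bases followed the motif. The capitals mark the motif.
H2afx (chr9:44335233-44335262, plus strand, GRCm38): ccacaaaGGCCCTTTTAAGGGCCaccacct
Hist1h2ap (chr13:21833026-21833051, minus strand, GRCm38): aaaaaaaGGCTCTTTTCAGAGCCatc
Hist2h2aa2 (chr3:96239777-96239806, minus strand, GRCm38): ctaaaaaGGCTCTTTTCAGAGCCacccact

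Another sequence matters for reading H2afz. The processed pseudogene Gm8203, a 387-base copy without introns on chromosome 6 (chr6:116173737-116174123, plus strand, GRCm38), was identical over its whole length to a stretch of H2afz-201. All 357 of its 31-base words were found in H2afz transcripts. Its first 60 bases, which start at the initiation codon of the copied coding sequence, are shown since these reads cannot be told apart by sequence.
Gm8203 (chr6:116173737-116173796): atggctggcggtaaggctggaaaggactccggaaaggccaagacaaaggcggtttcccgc

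Promoters of 300 bases (250 before and 50 after the RefSeq start, GRCm38.p6) were found for 8 of the 9 members. H3f3b and H2afv, whose levels were most alike over the cells, and Cenpa, whose levels ran most against those of H3f3b, are shown. The capitals mark matches on either strand to the CCAAT box, the element TTTGAA, the TATA box as TATAAA and the GC box as GGGCGG, and no match of a motif overlapped one of another motif in these windows.
H3f3b (chr11:116024455-116024754, minus strand): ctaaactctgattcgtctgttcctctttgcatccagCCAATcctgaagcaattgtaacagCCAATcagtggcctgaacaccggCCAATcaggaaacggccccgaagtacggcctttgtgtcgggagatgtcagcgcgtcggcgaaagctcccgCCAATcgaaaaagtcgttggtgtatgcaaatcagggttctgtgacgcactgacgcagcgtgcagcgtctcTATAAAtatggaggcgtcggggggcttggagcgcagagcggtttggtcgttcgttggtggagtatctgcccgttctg
H2afv (chr11:6444394-6444693, minus strand): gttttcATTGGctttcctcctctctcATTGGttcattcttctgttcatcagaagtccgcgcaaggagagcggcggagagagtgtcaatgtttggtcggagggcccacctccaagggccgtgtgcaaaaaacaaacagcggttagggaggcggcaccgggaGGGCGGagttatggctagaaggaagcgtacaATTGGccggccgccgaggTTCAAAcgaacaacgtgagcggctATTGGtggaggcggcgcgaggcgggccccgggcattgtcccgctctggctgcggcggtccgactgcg
Cenpa (chr5:30666636-30666935, plus strand): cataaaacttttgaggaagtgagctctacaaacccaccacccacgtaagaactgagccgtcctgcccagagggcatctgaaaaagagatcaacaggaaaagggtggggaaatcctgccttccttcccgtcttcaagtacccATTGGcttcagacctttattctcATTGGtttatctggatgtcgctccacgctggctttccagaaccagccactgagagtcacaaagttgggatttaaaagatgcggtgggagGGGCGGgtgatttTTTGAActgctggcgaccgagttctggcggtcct

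CCAAT stood in 6 of the 8 member promoters, beside 37.4% of all 32851 promoters of this length. The windows of H3f3b and H2afv held 4 copies each and that of Cenpa held 2. TTTGAA was found in 2 member promoters (H2afv and Cenpa) and in 17.9% of all promoters, TATAAA in 1 (H3f3b) and in 13.6%, and GGGCGG in 6 and in 35.7%. These matches describe the letters of the windows only.

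Facts of the cells that bear on the members were the following. The replication score, the percent of 40-kb bins called replicated, was 0.00385 to 3.54% in embryo 1 and 62.4 to 80.5% in embryo 2. Embryo and replication score therefore cannot be told apart. Each embryo was 1 biological replicate, so no difference was tested, and SDs give the spread between cells. The numbers that close the labels ran from 11 to 17 in 3 cells (cell 1 of embryo 1, cells 2 and 3 of embryo 2) and from 20 to 25 in the other 6. The ranges go with the versions of the protocol: in the supplementary sample list of the study the cells numbered 11 to 17 were lysed in the larger volume and those numbered 20 to 25 in the smaller one, which also had a smaller RNA reaction without purification of the cDNA. The labels themselves give no volume, so the groups are called by their numbers, and number and protocol version cannot be told apart. The cells numbered 11 to 17 had 12411 to 13319 genes above TPM 1 and the others 11058 to 11960, so the ranges did not overlap, and the part of this in the results was not tested. Genes of the mitochondrial genome took 5.98 to 6.82% of TPM in the cells numbered 11 to 17 and 4.28 to 18.2% in the others. All 8 blastomere markers were above TPM 1 in at least 1 cell, with a summed level of 3287 to 3915 TPM in embryo 1 and 2387 to 3069 in embryo 2, although Cdx2 reached only 9.80 TPM. None of 8 cumulus and granulosa markers was, and 6 of them were listed at 0 in every cell. Of 5 sperm markers, Prm1 and Prm2 were, with a summed level of at most 1.62 TPM. All 8 oocyte markers were, with sums of 56.2 to 66.8 TPM in embryo 1 and 24.7 to 75.5 in embryo 2, and their part in the member levels was not tested.

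Together the 9 members took 0.173 to 0.292% of the TPM of a cell. All members except H1foo were above TPM 1 in every cell. By mean log2(TPM + 1) the order was H2afz, H3f3a, H3f3b, H2afv, Cenpa, H2afx, H2afy, H1f0 and H1foo. The neighbours H2afz and H3f3a did not differ beyond their spread, with a mean within-cell difference of 0.04 ± 0.98 log2 units (SD over 9 cells) and H2afz the higher in 5 of 9 cells. The same held for H2afv and Cenpa, at 0.79 ± 1.05, with H2afv the higher in 6 of 9 cells. The other neighbours differed by more than 1 SD. H3f3a exceeded H3f3b by 1.28 ± 0.64 and H3f3b exceeded H2afv by 0.56 ± 0.34, each in all 9 cells.

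**Figure D1:**
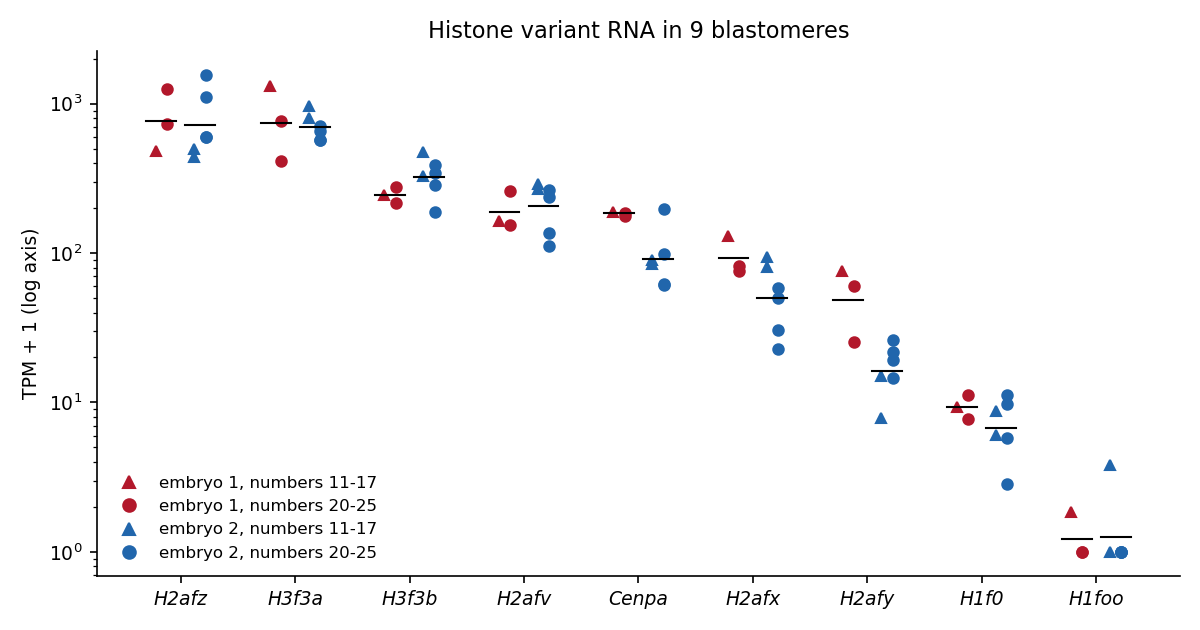
TPM + 1 of the 9 histone variant genes on a log axis, each symbol 1 cell, with triangles for label numbers 11 to 17, circles for 20 to 25 and black bars for the mean of log2(TPM + 1) in each embryo. H2afz and H3f3a share the top of the order and H1foo is listed at 0 in 7 of 9 cells.

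For the H3.3 genes, H3f3a (ENSMUSG00000060743.12, chr1:180800832-180813943, minus strand) measured 1307, 760 and 410 TPM in cells 1, 6 and 7 of embryo 1. In cells 2, 3, 5, 6, 7 and 8 of embryo 2 it measured 806, 965, 568, 705, 571 and 655 TPM. The cells of the embryos overlapped, and the 3 cells numbered 11 to 17 held the highest values of all. H3f3b (ENSMUSG00000016559.14, chr11:116021912-116027962, minus strand) measured 242, 216 and 277 TPM in embryo 1 and 329, 477, 283, 187, 386 and 344 TPM in embryo 2, in the same order of cells. These values overlapped between the embryos and between the number ranges. The genes encode the same protein, and the ratio of H3f3a to H3f3b TPM ran from 1.48 to 5.39 with a median of 2.02. Over the 9 cells their log2 levels had a Pearson r of -0.0043, a description with no test.

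For the H2A.Z genes, H2afz (ENSMUSG00000037894.13, chr3:137864487-137866922, plus strand) measured 483, 1258 and 732 TPM in embryo 1. In embryo 2 it measured 441, 493, 596, 601, 1566 and 1110 TPM. The 3 lowest values were those of the cells numbered 11 to 17. H2afv (ENSMUSG00000041126.16, chr11:6427229-6444443, minus strand) measured 163, 152 and 260 TPM in embryo 1 and 266, 287, 111, 136, 265 and 236 TPM in embryo 2. Its cells overlapped in both splits. H2afz exceeded H2afv in all 9 cells, by a ratio of 1.65 to 8.26 with the pseudogenes of H2afz left out.

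H2afx (ENSMUSG00000049932.3, chr9:44334694-44336077, plus strand), whose product is phosphorylated at DNA breaks, measured 129, 80.4 and 74.4 TPM in embryo 1. In embryo 2 it measured 93.8, 79.4, 49.2, 57.2, 29.8 and 21.7 TPM, and 4 of these 6 values lay below every value of embryo 1. H2afy (ENSMUSG00000015937.15, chr13:56073619-56136361, minus strand) measured 74.8, 59.3 and 24.5 TPM in embryo 1 and 6.88, 13.9, 20.6, 13.6, 25.3 and 18.1 TPM in embryo 2. The embryos overlapped only through cell 7 of each.

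Cenpa (ENSMUSG00000029177.9, chr5:30666777-30674830, plus strand), the histone that marks the centromere, measured 189, 176 and 186 TPM in embryo 1. In embryo 2 it measured 88.8, 83.7, 97.2, 195, 60.6 and 61.3 TPM. The 3 cells of embryo 1 lay within a narrow band, 5 cells of embryo 2 lay below it, and cell 6 of embryo 2 was the highest of all 9 cells.

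Of the linker variants, H1f0 (ENSMUSG00000096210.2, chr15:79028450-79030504, plus strand) measured 8.34, 10.2 and 6.75 TPM in embryo 1 and 5.10, 7.78, 8.72, 4.76, 10.2 and 1.83 TPM in embryo 2. H1foo (ENSMUSG00000042279.13, chr6:115944938-115950236, plus strand) was listed at 0.85 TPM in cell 1 of embryo 1, at 2.82 TPM in cell 3 of embryo 2 and at 0 in the other 7 cells. Both cells with a value were numbered 11 to 17. The tables keep no read counts, so a value of 0 sets no upper limit here.

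Between the embryos, Cenpa and H2afy were lower in embryo 2 by more than 1 log2 unit. The mean TPM of Cenpa was 184 ± 6.52 (SD, 3 cells) in embryo 1 and 97.7 ± 49.8 (SD, 6 cells) in embryo 2, a difference in mean log2(TPM + 1) of -1.02 beside a pooled SD between cells of 0.52. Within the number ranges it was -1.12 (11 to 17) and -0.97 (20 to 25). Without cell 6 of embryo 2 it was -1.24, and without cell 7 or cell 8 of embryo 2 it was -0.91. For H2afy the means were 52.8 ± 25.8 and 16.4 ± 6.40 TPM, the difference was -1.58 beside a pooled SD of 0.68, and within the ranges it was -2.80 and -0.97. Within 11 to 17 embryo 1 had only 1 cell.

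The other tested members differed by less. For H2afx the difference was -0.89 beside a pooled SD of 0.71, and within the ranges it was -0.58 and -1.05, so that within 20 to 25 H2afx was the member past 1 log2 unit and Cenpa and H2afy were not. H3f3b differed by 0.40 beside 0.40, H2afv by 0.13 beside 0.54 and H1f0 by -0.47 beside 0.63. For H3f3a and H2afz the differences were -0.09 each, beside pooled SDs of 0.51 and 0.71. H3f3a stood at -0.57 within 11 to 17 and 0.16 within 20 to 25, so its direction turned between the ranges, and that of H2afv likewise (0.76 and -0.18). Both turns rest on the 1 cell of embryo 1 numbered 11 to 17.

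Of the 8 members with a mean TPM above 1, the filter that H1foo did not pass, 2 were lower by at least 1 log2 unit and 0 higher. Over 13612 nuclear genes past that filter, 10.7% were lower and 7.60% higher, and their median difference was -0.04. The median over the 8 members was -0.28. In 0 of the 8 did the cells of the embryos not overlap, beside 2.51% of genes with every cell of embryo 2 lower and 0.830% with every cell higher.

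**Figure D2:**
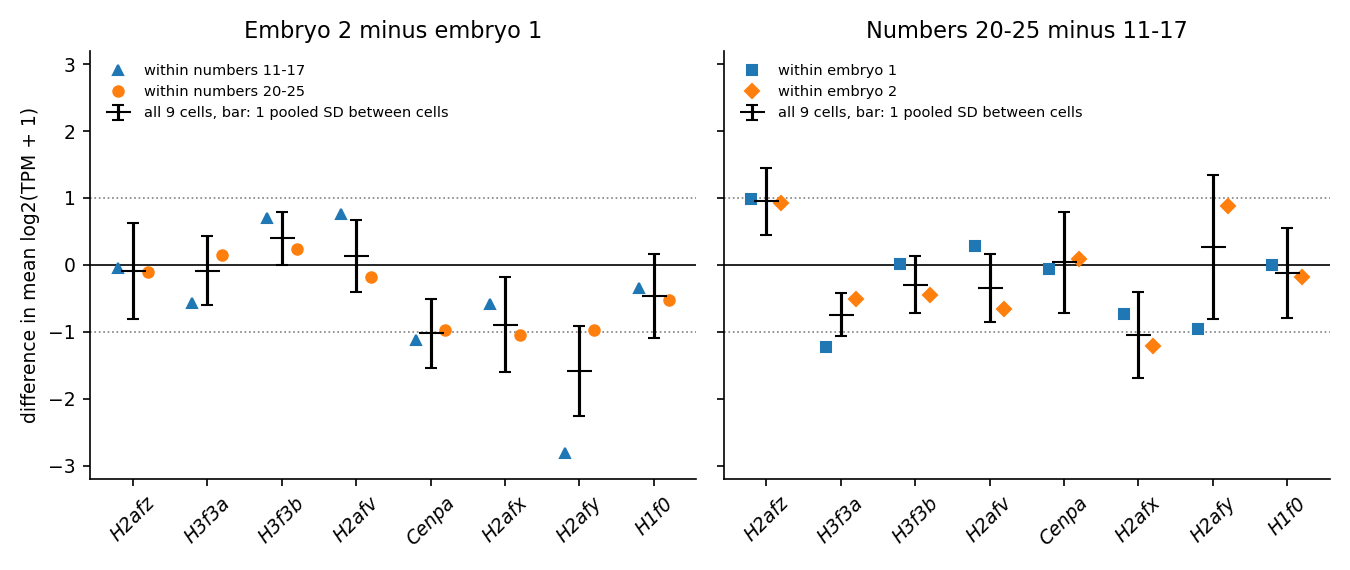
Difference in mean log2(TPM + 1) for the 8 members with a mean TPM above 1, between the embryos (left) and between the label number ranges (right), with bars of 1 pooled SD between cells and symbols for the same difference within each range or embryo. Cenpa and H2afy lie past -1 on the left, and H2afz on the right lies at 0.99 and 0.93 within the embryos. With pseudogene TPM added H2afz stood at -0.25 over all cells, a sum that weighs a read on a shorter copy more.

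Between the number ranges the members split by gene in TPM. In the cells numbered 20 to 25 every value of H2afz was above, and every value of H3f3a below, those of the cells numbered 11 to 17. H2afz averaged 472 ± 27.8 TPM in 11 to 17 (SD, 3 cells) and 977 ± 398 in 20 to 25 (SD, 6 cells), a log2 difference of 0.95. With the TPM of processed pseudogenes added it was -0.25, a sum that weighs a read on a shorter copy more. H3f3a averaged 1026 ± 256 and 612 ± 124 TPM, a log2 difference of -0.74. On its model H3f3a-201 alone the difference was 0.05, and a read on a shorter model weighs more in TPM. The ratio of H2afz to H3f3a was 0.370 to 0.547 in the lower range and 0.853 to 2.74 in the upper range. The median of all tested genes was shifted by -0.29 between the ranges. Relative to it H2afz stood further up and H3f3a less far down.

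Such separation was seen in 1 of 8 members upward, beside 1.24% of all tested genes, and in 1 of 8 downward, beside 6.13%. By at least 1 log2 unit, 1 of 8 was lower (H2afx, -1.05, beside 16.1% of genes) and 0 were higher (beside 4.63%). H2afx was past that limit neither without cell 1 of embryo 1 (-0.86) nor without cell 7 (-0.92) or cell 8 (-0.83) of embryo 2. H3f3b, H2afv, Cenpa and H1f0 differed between the ranges by -0.30, -0.34, 0.04 and -0.12, each within its pooled SD of 0.42, 0.51, 0.75 and 0.67. H2afy differed by 0.27 beside 1.07, and its direction turned between the embryos (-0.95 in embryo 1 and 0.88 in embryo 2), as did that of H2afv (0.28 and -0.65). In embryo 1 the lower range was only 1 cell.

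The H2afz split went with the pseudogene. Gm8203 was listed at 777, 517 and 568 TPM in the 3 cells numbered 11 to 17 and at 0 in the other 6. With the processed pseudogenes that share at least 100 words of 31 bases with H2afz added (3 genes, of which Gm8203 gave nearly all the TPM), the sum was 958 to 1261 TPM in 11 to 17 and 596 to 1566 TPM in 20 to 25. The ranges then overlapped, and the difference of 0.95 became -0.25. The ratio of that sum to H3f3a was 0.965 to 1.19 in the lower range, inside the 0.853 to 2.74 of the upper range. TPM is per length, so a read placed on the 387-base copy adds more TPM than a read placed on the longer H2afz models, and the sum is not a count of reads. Whether the difference turns when all reads are weighed alike was not tested. Of 928 processed pseudogenes with a mean TPM above 1, 6.57% were lower in every cell numbered 20 to 25, close to the share of all genes.

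H3f3a shared such words with 18 processed pseudogenes, whose sum was 9.77 to 22.2 TPM in 11 to 17 and at most 32.4 TPM in 20 to 25. Adding them left H3f3a separated between the ranges, at -0.73. H3f3b shared them with 2, at most 3.62 TPM, and H2afv, H2afy, Cenpa, H1foo and H1f0 with none. H2afx shared 103 to 120 of its 1354 words of 31 bases with each of 16 other genes and pseudogenes, up to the 804 TPM of Hist1h2ap, so its values are uncertain to the extent that reads over that part were divided among them.

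The transcript models of H3f3a and H3f3b divided along the same line. H3f3a-201 (888 nt), the main model, held 60.4% of the gene's TPM on average and was steady, with 370 to 438 TPM in the lower and 287 to 505 TPM in the upper range. H3f3a-204, a short model of 481 nt, was listed at 369 to 711 TPM in the lower range and at 0 to 83.5 TPM in the upper. Its share averaged 47.6% in the lower range, above that of H3f3a-201, and 2.7% in the upper. H3f3a-205, a long model of 2841 nt, ran the other way, from 18.1 to 42.1 TPM and from 106 to 269 TPM. On H3f3a-201 alone the difference between the ranges was 0.05, and the -0.74 of the gene was carried by the other models. TPM is per length, so a read placed on the 481-nt model adds more TPM than one on the 2841-nt model. The -0.74 is therefore not a count of reads. Whether H3f3a differs when all reads are weighed alike was not tested.

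For H3f3b, the coding model H3f3b-201 (1993 nt) was listed at 76.2 to 134 TPM in the lower range and 164 to 383 TPM in the upper. The processed transcript H3f3b-204 (874 nt), annotated with no coding sequence, was listed at 156 to 342 TPM and at 1.37 to 63.2 TPM. It held 65.7% of the gene's TPM on average in the lower range and 6.89% in the upper. On H3f3b-201 alone the difference between the ranges was 1.203, against -0.30 for the gene. The models of H3f3b thus differed in opposite directions, and the -0.30 of the gene is likewise not a count of reads.

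H2afz was carried by H2afz-207 (810 nt, 59.2% on average) and H2afz-201 (1069 nt, 38.7%), and only H2afz-201, the model that holds the Gm8203 copy whole, was separated, with 117 to 162 TPM in the lower and 293 to 571 TPM in the upper range. H2afv-201 (519 nt) held 88.5% of H2afv and overlapped between the ranges. The longer H2afv-202 (1633 nt) was listed at 27.7 to 29.3 TPM in the lower range and 11.4 to 24.02 TPM in the upper. In all, 29 member transcripts had a mean TPM above 1. Of these 3 were separated upward, beside 1.49% of 28119 transcripts, and 5 downward, beside 5.91%. The models of a gene share its reads, so these are not independent of each other.

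**Figure D3:**
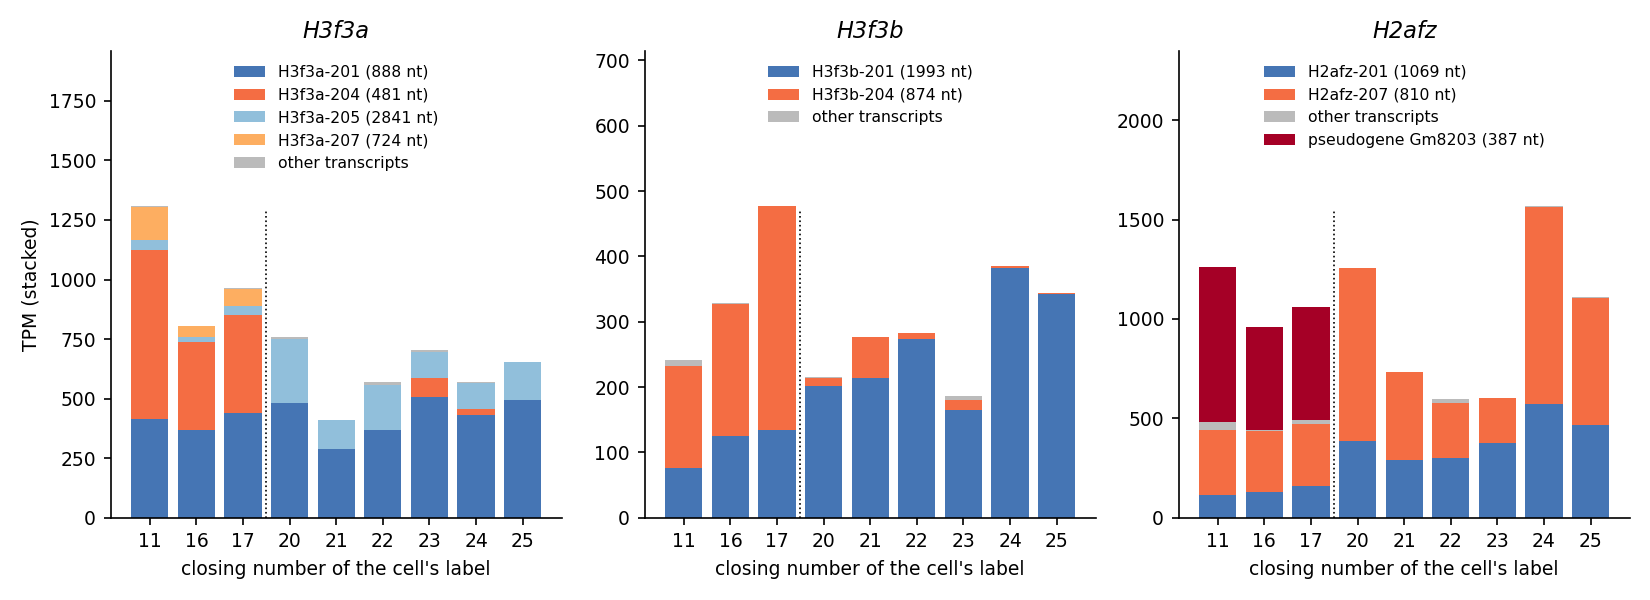
Stacked TPM of the transcript models of H3f3a, H3f3b and H2afz in each cell, ordered by the closing number of its label, with the pseudogene Gm8203 stacked on H2afz. Left of the dotted line (11 to 17) the models H3f3a-204 and H3f3b-204 and the pseudogene make up much of the columns, and right of it Gm8203 is listed at 0 in all 6 cells.

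The other members showed no such split in their main models. H2afx and H1f0 have a single annotated model each. H2afy-201 (2046 nt) held 70.6% of H2afy on average, and H2afy-202 (1933 nt) held 23.2% and was listed at 0 in 4 cells. Cenpa was spread over Cenpa-202 (35.1%) and Cenpa-210 (29.8%), both annotated for nonsense-mediated decay, and Cenpa-205 (12.9%), which is coding. The embryo difference of Cenpa therefore refers to the sum over models. H1foo-202 and H1foo-205 each carried the whole value of 1 cell.

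The place of the members within their histone class was described by the share of the class's TPM. A class was the variants named here and its replication-dependent genes. Cenpa, the centromeric H3, at a mean of 126 TPM, was counted on neither side. H3.3 took 93.4 ± 2.60% (SD, 9 cells) of the TPM of H3 genes, from 89.1 to 97.8%, against 12 replication-dependent H3 genes whose sum was 15.6 to 139 TPM. Its share was 94.7 ± 3.302% in embryo 1 and 92.7 ± 2.19% in embryo 2, a difference within the spread between cells. H3.3 was the major H3 RNA in every cell on this scale.

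The H2A variants H2afz, H2afv, H2afx and H2afy took 66.6 ± 18.0% of the TPM of these and 17 replication-dependent genes, from 43.6 to 94.3%. H2afj, at a mean of 68.6 TPM, was counted on neither side. The share was 80.5 ± 13.9% in embryo 1 and 59.7 ± 16.4% in embryo 2, a difference of -20.8 percentage points beside a pooled SD of 15.7, and it was -20.1 within 11 to 17 and -21.2 within 20 to 25. Within 11 to 17 embryo 1 had only 1 cell. The embryos overlapped, with 66.4 to 94.3% and 43.6 to 79.9%. The replication-dependent sum varied most, from 66.4 TPM in cell 7 of embryo 1 to 1047 TPM in cell 6 of embryo 2. With pseudogene TPM added, in which a read on a shorter copy weighs more, the share was 84.7 ± 8.28% and 63.8 ± 13.3%. The number ranges differed as widely, with 53.0 ± 11.8% in 11 to 17 and 73.4 ± 17.2% in 20 to 25, and with pseudogenes added with 65.5% and 73.4%.

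The H1 variants H1foo and H1f0 took 18.3 ± 10.8% of the TPM of these and 5 replication-dependent H1 genes, from 4.83 to 33.2%. H1fx, at a mean of 1.86 TPM, was counted on neither side. Nearly all of the variant share was H1f0. The share was 24.1 ± 10.6% in embryo 1 and 15.3 ± 10.5% in embryo 2, and it differed by less than the pooled SD of 10.5 percentage points. The difference was -0.62 percentage points within 11 to 17, with 1 cell of embryo 1, and -12.9 within 20 to 25. Between the number ranges the share was 11.5 ± 6.34% in 11 to 17 and 21.6 ± 11.3% in 20 to 25.

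**Figure D4:**
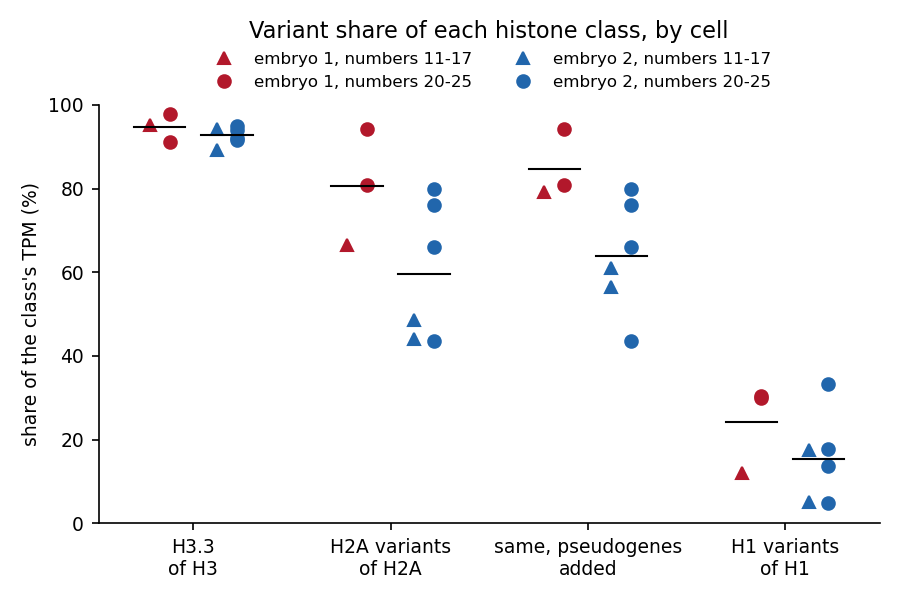
Share of the TPM of each histone class taken by its replication-independent variants, each symbol 1 cell and black bars the mean of each embryo. Cenpa, H2afj and H1fx are counted on neither side. H3.3 stays between 89.1 and 97.8%, while the H2A variants spread from 43.6 to 94.3% and the H1 variants from 4.83 to 33.2%.

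Replication states were available for the loci of 7 members. Chromosome 6, with H1foo, had no bins, and no bin of the table lay over H2afx. In embryo 1 all 7 loci were called unreplicated in every cell, except H2afy, which was called replicated in cell 6. The calls compare bins within a cell, so a cell of even copy number before S phase and one after it cannot be told apart, and "unreplicated" in embryo 1 is the call as deposited. In embryo 2, H3f3a, H3f3b, H2afz and H2afy were replicated in all 6 cells, beside 75.5% of 11091 tested genes with states in all 6 cells and 48.7% of bins. H2afv was replicated in 5 of 6, with cell 3 the exception. Cenpa and H1f0 were also replicated in 5 of 6, with cell 6, the cell with the lowest score of embryo 2, the exception.

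Cenpa was the highest of embryo 2 in the cell with its locus unreplicated, with 195 TPM against 60.6 to 97.2 TPM in the other 5 cells. On the log2 scale this was 1.33 above their mean, beside an SD of 0.31 among them. H2afv was also highest in its exceptional cell, with 287 TPM, but the other cells reached 266 TPM and the distance of 0.59 equalled their SD of 0.59. H1f0 was not, with 4.76 TPM inside the 1.83 to 10.2 TPM of the other cells.

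Of 2236 tested genes unreplicated in only 1 of the 6 cells, 12.2% had their highest RNA in that cell and 11.3% stood at least 1 log2 unit above the mean of the other cells there. Of the 3 members, 2 and 1 did. Among the 1623 genes that shared the state of Cenpa, unreplicated in cell 6 only, the median distance was -0.27, and 136 (8.38%) were at least as far up as Cenpa. The unreplicated stretch around Cenpa in that cell ran over 16 bins (chr5:30360001-31000000) and held 10 tested genes, of which Agbl5, Cenpa and Mapre3 had their highest RNA there. The stretch around H1f0 in the same cell ran over 18 bins and held 21 tested genes, of which 1 (Gm25072, not H1f0) did, and that around H2afv in cell 3 ran over 128 bins and held 23, of which 5 did, H2afv among them. These names were taken after the values were seen.

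**Figure D5:**
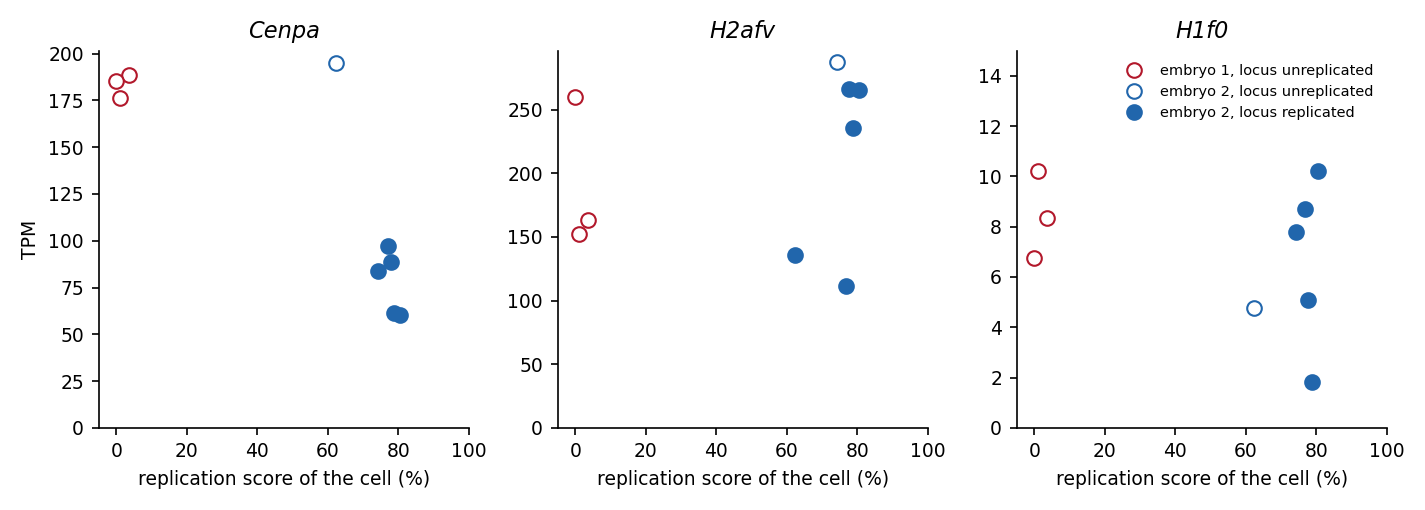
TPM of Cenpa, H2afv and H1f0 in each cell against the replication score of the cell, in percent, with open circles where the locus was called unreplicated and filled circles where it was replicated. For Cenpa the 4 open circles lie at 176 to 195 TPM and the 5 filled circles at 60.6 to 97.2 TPM, but 3 of the open circles are the cells of embryo 1, so that only cell 6 of embryo 2 sets state apart from embryo, while for H1f0 open and filled circles overlap.

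Over the 9 cells the log2 levels of member pairs had a median Pearson r of 0.04 over 28 pairs. It was above 0.5 in 3 pairs and below -0.5 in 2. H3f3b and H2afv had the highest value, 0.74, and H3f3b and Cenpa the lowest, -0.82. H2afx had 0.67 with Cenpa and -0.67 with H2afz, whose TPM was taken without its pseudogenes. All points share 2 embryos and 2 number ranges, and the values are descriptions.

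Among 6454 genes with a mean TPM of at least 10, the levels most like those of H2afz were Dis3 (r of 0.93), Rock2 (0.92) and the antisense gene Gm37401 (0.91). For H3f3a they were Tbc1d17, Wdr73 and Cdc37 (0.95, 0.94 and 0.94), all 3 separated downward between the number ranges like H3f3a itself. For H3f3b they were Mrpl9 (0.95), Oard1 (0.93) and Gls2 (0.90). Dis3 and Gm37401 were separated upward between the ranges, as H2afz was before its pseudogene was counted.

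The related lists held 34 chaperones and exchange factors of the variants and 8 other replication-independent histone genes. Of these 42 genes, 37 had a mean TPM above 1, of which 1 was higher by at least 1 log2 unit (Npm2, an oocyte chaperone, 1.26, at a mean of only 4.46 TPM) and 1 lower (Chaf1b, a subunit of the replication-coupled H3 chaperone CAF-1, -1.07), beside 7.60% and 10.7% of all tested genes. In none did the cells of the embryos not overlap, beside 0.830% upward and 2.51% downward. The median of the 37 was 0.05, against -0.04 over all tested genes.

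For H3.3, the HIRA complex and ATRX-DAXX deposit the protein at active genes and at repeats. Hira was listed at 9.70 to 51.0 TPM, Asf1a, which hands H3 to HIRA, at 44.6 to 178 TPM, Atrx at 21.1 to 137 TPM and Daxx at 2.59 to 64.0 TPM. The embryo difference of Asf1a was 0.91 and that of Hira 0.79, both short of 1 log2 unit and with overlapping cells. Ubn1, Ubn2 and Cabin1 had means under 20 TPM. For H2A.Z, the abundant factors were Anp32e, which removes it (40.3 to 473 TPM), and Ruvbl2 (87.3 to 192 TPM) and Actl6a (25.1 to 138 TPM), subunits of the exchange complexes. Srcap, the ATPase of the SRCAP complex, was listed at 40.03 to 90.8 TPM in the cells numbered 11 to 17 and at 9.63 to 30.2 TPM in the others. Dmap1, Ruvbl1, Znhit1, Vps72 and Kat5 had means from 25.9 to 47.8 TPM.

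For CENP-A, its chaperone Hjurp was listed at 15.9 to 47.4 TPM and the licensing factors Mis18a and Oip5 at 18.4 to 33.2 and 10.4 to 69.6 TPM. Rbbp4 and Rbbp7, histone-binding subunits of several complexes, were at 91.4 to 228 and 167 to 440 TPM. All 6 genes of this list differed between the embryos by less than 1 log2 unit, with a median of -0.15, beside the -1.02 of Cenpa. The difference between Cenpa and these genes was not tested.

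Of general chaperones, Npm1 (1097 to 5197 TPM), Set (741 to 1667 TPM) and Nasp (249 to 463 TPM) were the most abundant. Ssrp1, Supt16, Chaf1b and Asf1b had means from 22.5 to 72.0 TPM. Among other replication-independent histone genes H2afj was listed at 35.9 to 101 TPM, similar to H2afx, while H1fx reached 4.12 TPM, H2afy2 1.02 TPM and Hist1h2aa 9.49 TPM. H1fnt, Hils1, Hist1h1t and Hist1h2ba were listed at 0 in every cell. Between the number ranges 8 of the 37 genes were lower by at least 1 log2 unit, beside 16.1% of all tested genes, and 4 were separated (Srcap, Vps72, Chaf1a and H1fx), all downward, beside 6.13%.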

How the data were processed

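Single blastomeres were lysed by the authors, the genomic DNA was held on magnetic beads, and the RNA and DNA of each cell were sequenced apart (RamDA-seq for total RNA, scRepli-seq for DNA). TPM of 55487 genes and 142699 transcripts were deposited, which the authors had estimated with RSEM after alignment with Hisat to mm10 and GENCODE M25 annotation, with reads set to a common number, 1 column per cell and no pooling. TPM columns sum to a fixed total and keep no read counts per gene, so no counting interval was given. Whether the division of reads used strand is not given in the sources used here. The authors also deposited replication state scores (1 replicated, -1 unreplicated, 0 no data) of 51976 bins of 40 kb on 17 chromosomes, called with a hidden Markov model. BWA 0.7.17-r1188 stands in the submitters' processing notes.

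RNA columns were assigned by the number that closes each title, since their headers repeat 1 embryo and cell. Another 14 columns per table had no label of this series and were not used. Genes were named by GENCODE M21, the same build, in which 55227 of 55487 identifiers were found. Differences are of mean log2(TPM + 1), which understates changes of low genes. Genes with a mean TPM above 1 formed the background, mitochondrial genes left out. A difference of 1 log2 unit, or cells that do not overlap, was counted. All 9 members were named. Related genes were named at a mean TPM of at least 20 or past the fold with no overlap, others are named to complete a count or list, and the 3 genes most like each of the 3 highest members were named. A gene was called replicated by the sign of the mean over its bins. Since each cell is a sample and each embryo 1 replicate, no p-value was computed. Functions were tested on simulated data. The members and gene lists were chosen with earlier results of these data known, and the alternatives with pseudogenes or single transcript models were added after seeing the values. Python 3.11.15, numpy 2.4.6, pandas 2.3.3, scipy 1.17.1 and matplotlib 3.10.9 were used. Sequences came from GENCODE M21 transcripts and RefSeq promoters (GRCm38.p6).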

Additional observations from a re-analysis of the deposited data

Results flagged for a closer look

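Over the 6 cells of embryo 2, 12 measures were examined (the TPM of 9 members and 3 class shares). In 2 of them a cell had a gap to its nearest neighbour above 0.625 of the whole range. For normally distributed values chance passes this limit in about 1 of 20 groups. Cenpa in cell 6 (194.85 TPM) had a gap of 0.727 of the range, and 0.597 on the log2 scale, which is under the limit. The same cell had the lowest replication score of embryo 2 (62.4%) and an unreplicated Cenpa locus, and their part in the value was not tested. H1foo in cell 3 (2.82 TPM) was the only value above 0 among the 6 cells. Its gap was therefore the whole range, and the rate of 1 in 20 does not apply to it. The value came from the 520-nt model H1foo-205.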

How the results depend on the processing

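No paired analysis was possible because each embryo is 1 biological replicate and no test was made, and cell numbers shared by the embryos do not pair their cells. The number of members lower in embryo 2 by at least 1 log2 unit was 2. It was 1 with a pseudocount of 10, with TPM of nuclear genes only, with each cell centred on its median and within label numbers 20 to 25, and 1 to 3 when each cell was left out in turn. Under the first 3 of these the difference of Cenpa was -0.95, -0.93 and -0.98 and H2afy kept its place, while within 20 to 25 the 1 member was H2afx (-1.05), with Cenpa and H2afy at -0.97 each. Between the number ranges, 0 members were higher and 1 lower. These counts became 1 and 0 with nuclear genes only and with centring, the lower count became 0 with a pseudocount of 10, and leaving out each cell gave 0 to 1 for both. H2afz was the member that passed upward under both scalings. With the TPM of processed pseudogenes added its difference went from 0.95 to -0.25, a sum that weighs a read on a shorter copy more. No member past the fold in the main setting changed sign under any alternative. Of single-member differences, 66 of 68 between embryos and 60 of 68 between ranges moved by less than 1 pooled SD under the alternatives other than leaving out a cell, and 81 of 81 of each when a cell was left out. The 3 class shares moved by less than 1 SD under every alternative run. Without a filter on low values 1.88% of nuclear genes were higher and 2.92% lower by the fold between embryos. By median TPM 1 pair of members changed order. Read counts, which would limit the low values of H1f0 and H1foo, are not kept by the tables.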
